A study of Frankliniella occidentalis and Frankliniella intonsa with 9 samples.

Results

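Enzymes that make and break down inositol, that interconvert sugar alcohols and that degrade urate were examined in thrips antennae. Assembled genes were taken as members where their annotation text named inositol-3-phosphate synthase, inositol monophosphatase, inositol oxygenase, sorbitol dehydrogenase, uricase, hydroxyisourate (HIU) hydrolase or the decarboxylase that follows it (OHCU decarboxylase). These names found 35 of 48889 assembled genes, in 16 assembly components (groups of related assembled sequences). The enzyme names were selected on the difference between male and female F. occidentalis libraries, with TRINITY_DN42396_c0_g1 and TRINITY_DN43505_c0_g3 chosen by their lower level in males. That difference is therefore given below as a description and supports nothing by itself.

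RNA was sequenced from antennae of 1 day old adults in 9 libraries. Frankliniella occidentalis, the western flower thrips, gave 3 from females and 3 from males, and the related flower thrips Frankliniella intonsa gave 3 from females. No treatment, genotype or strain is named for any group, and the labels do not say whether a replicate was a single insect, a pool or a repeat of the same RNA, so p-values measure only the spread between these samples. Values are TPM, which scale a gene for its length and for the library total, and no read numbers are held, so depth is unknown. In bulk RNA, fewer cells of a type and less RNA per cell cannot be told apart.

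Inositol monophosphatase frees myo-inositol from its phosphate, both in new synthesis after inositol-3-phosphate synthase and in the recycling of inositol phosphate signals. Inositol oxygenase opens the inositol ring to give glucuronate, the first step of inositol breakdown, and sorbitol dehydrogenase interconverts sorbitol and fructose. Urate is a main form in which insects excrete and store waste nitrogen, and uricase, HIU hydrolase and OHCU decarboxylase act on it in that order to give allantoin. In Drosophila, uricase is known from the Malpighian tubule, and fat body is a known site of urate storage in several insects.

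The members were low to moderate in level, with a highest single value of 151 TPM. Their summed level was 1003, 970 and 545 TPM in females 1, 2 and 3 of F. occidentalis, and 342, 210 and 237 TPM in males 1, 2 and 3. It was 110, 437 and 10.1 TPM in F. intonsa females 1, 2 and 3. The groups of F. occidentalis did not overlap, with female 3 nearest to the males. The assembled genes ran from 203 to 2132 bases, several share a component, and some may be parts or alleles of the same transcript, so they are not independent. The best database match lay in the termite Zootermopsis nevadensis for 19 members and in the sawfly Neodiprion lecontei for 4.

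Library facts bear on these values. Library totals ran from 935518 to 987791 TPM. The share of TPM on genes with no entry in any annotation column was 23.0% to 27.9% for F. occidentalis. For F. intonsa females 1, 2 and 3 it was 84.4%, 43.8% and 91.6%. Antennal marker genes (odorant-binding, pheromone-binding and chemosensory proteins, odorant receptors and sensory neuron membrane proteins, 47 assembled genes) summed to 8880 to 10880 TPM in F. occidentalis females and 10600 to 13020 TPM in males. In F. intonsa they summed to 1608, 11240 and 335 TPM. The F. intonsa libraries thus stood apart from each other in both measures.

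Between the sexes of F. occidentalis, 7 of the 22 members tested passed an adjusted p of 0.05, all with males lower (0.918% of all tested genes did so). They were genes of inositol monophosphatase, inositol oxygenase, sorbitol dehydrogenase, HIU hydrolase and OHCU decarboxylase, and no uricase gene was among them. Of the 35 members, 22 reached at least 1 TPM in at least 3 of the 6 libraries and were tested. Another 10 were listed at 0 in all 6 libraries and 3 were too low. Of the 22 tested, 21 had a log2 fold change below 0 (37.6% of all 22015 tested genes did), 14 had sexes that did not overlap with males lower (6.83% of all), and the 7 passed by limma-trend with Benjamini-Hochberg adjustment over all tested genes. None passed with males higher. The median log2 fold change was −1.76 for the tested members and 0.19 for all tested genes, so the members lay −1.95 from that median, and −1.89 after quantile normalization, which moves the median of all genes to −0.02. Since the names were chosen on this contrast, nothing is read from these shares. The count of 7 was 2 without female 1 or without female 2, 4 without male 2 or without male 3, 3 with limma without trend, and 4 with no filter on low values or with all 9 libraries in the fit. It was 6 without female 3 or without male 1, and 6 to 8 under the other settings fitted over single rows. The number below 0 was 21 of 22 under all 13 alternatives.

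**Figure D1:**
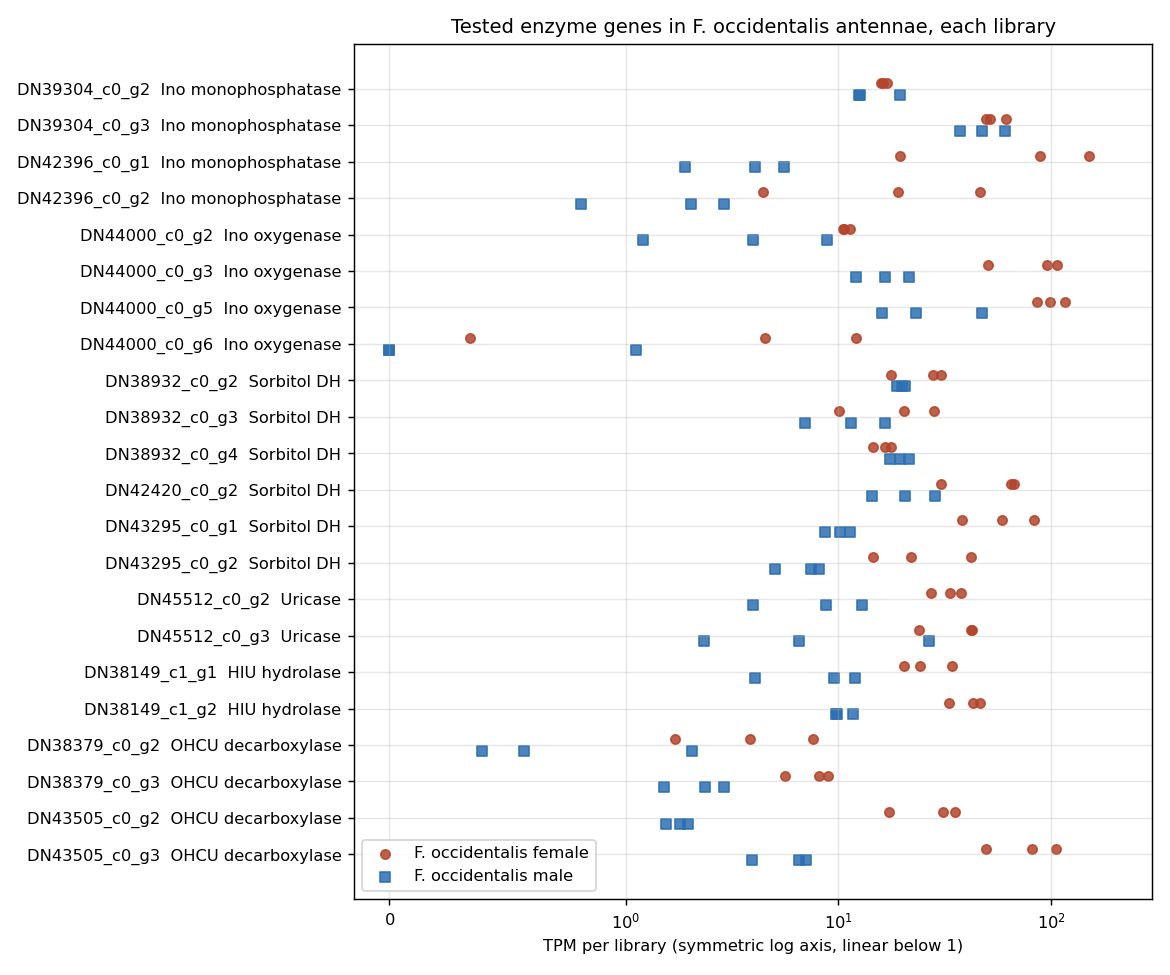
Level in TPM (x axis, symmetric log scale) of the 22 tested members (y axis) in each F. occidentalis library, with circles for the 3 females and squares for the 3 males. In 14 rows all squares lie left of all circles. The rows of component DN39304, those of DN38932, and DN44000_c0_g6, DN45512_c0_g3 and DN38379_c0_g2 overlap.

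Inositol-3-phosphate synthase was barely listed under that name in F. occidentalis. The only assembled gene named inositol-3-phosphate synthase (TRINITY_DN39706_c0_g2), the enzyme that makes inositol phosphate from a glucose phosphate, was at 0 to 0.53 TPM in females against 0.12 to 0.43 TPM in males. It was at 10.9 TPM in F. intonsa female 2 and listed at 0 in F. intonsa females 1 and 3. It was too low to be tested in either comparison. A synthase gene under another name, or low in every library (the smallest row maximum was 5.01 TPM), would not be seen here.

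The 6 inositol monophosphatase genes fell into assembly components that differed in their pattern. TRINITY_DN42396_c0_g1 was at 151, 89.1 and 19.5 TPM in females 1, 2 and 3 and at 5.56, 1.89 and 4.04 TPM in males 1, 2 and 3. All males lay below all females, but the females themselves spread 7.76-fold. Its log2 fold change was −3.84 ± 0.67 (SE, 3 libraries per sex; male over female, of TPM + 1), the lowest of the tested members. Its neighbour g2 in the same component was at 46.3, 19.0 and 4.40 TPM in females against 2.02, 0.81 and 2.91 TPM in males. It also held the order of females 1, 2 and 3, with a 10.5-fold spread, and had a log2 fold change of −2.63 ± 0.71 (SE). The best Swiss-Prot match of both was inositol monophosphatase 2 of tomato, Solanum lycopersicum.

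The other inositol monophosphatase component, TRINITY_DN39304_c0, was nearly level between the sexes in both of its tested genes, g2 and g3, whose Swiss-Prot match was human IMPA1. Its g3 was at 51.7, 61.4 and 49.7 TPM in females against 61.1, 37.4 and 47.5 TPM in males, a log2 fold change of −0.18 ± 0.28 (SE, 3 libraries per sex). Its g2 was at 15.9 to 17.0 TPM in females against 12.5 to 19.5 TPM in males (−0.15 ± 0.30). The sexes overlapped in both. The ratio of the first component to this one within a library, which does not depend on how libraries are scaled, was 2.91, 1.40 and 0.359 in females 1, 2 and 3. In males it was 0.0941, 0.0541 and 0.116. The tomato-like component was thus the more abundant of the pair only in females 1 and 2. It holds TRINITY_DN42396_c0_g1, chosen for its lower level in males, so this ratio is a description only.

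Inositol oxygenase was among the more abundant members in females. TRINITY_DN44000_c0_g5 was at 98.8, 117 and 85.7 TPM in females against 47.4, 16.1 and 23.2 TPM in males, with no overlap and a log2 fold change of −1.89 ± 0.39 (SE, 3 libraries per sex). Its neighbour g3 was at 95.3, 107 and 50.6 TPM in females against 21.4, 12.1 and 16.6 TPM in males (−2.23 ± 0.36). The lesser g2 was at 11.3, 10.5 and 10.6 TPM in females against 8.84, 3.95 and 1.20 TPM in males. The sexes were apart in all 3. The sparse g6 overlapped, at 0.34 to 12.1 TPM in females against 0 to 1.12 TPM in males. Summed over all rows of that name, the enzyme was at 201.3 ± 50.2 TPM in females against 50.7 ± 24.8 TPM in males (SD, n = 3 each), so the male mean was 25.2% of the female mean.

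**Figure D2:**
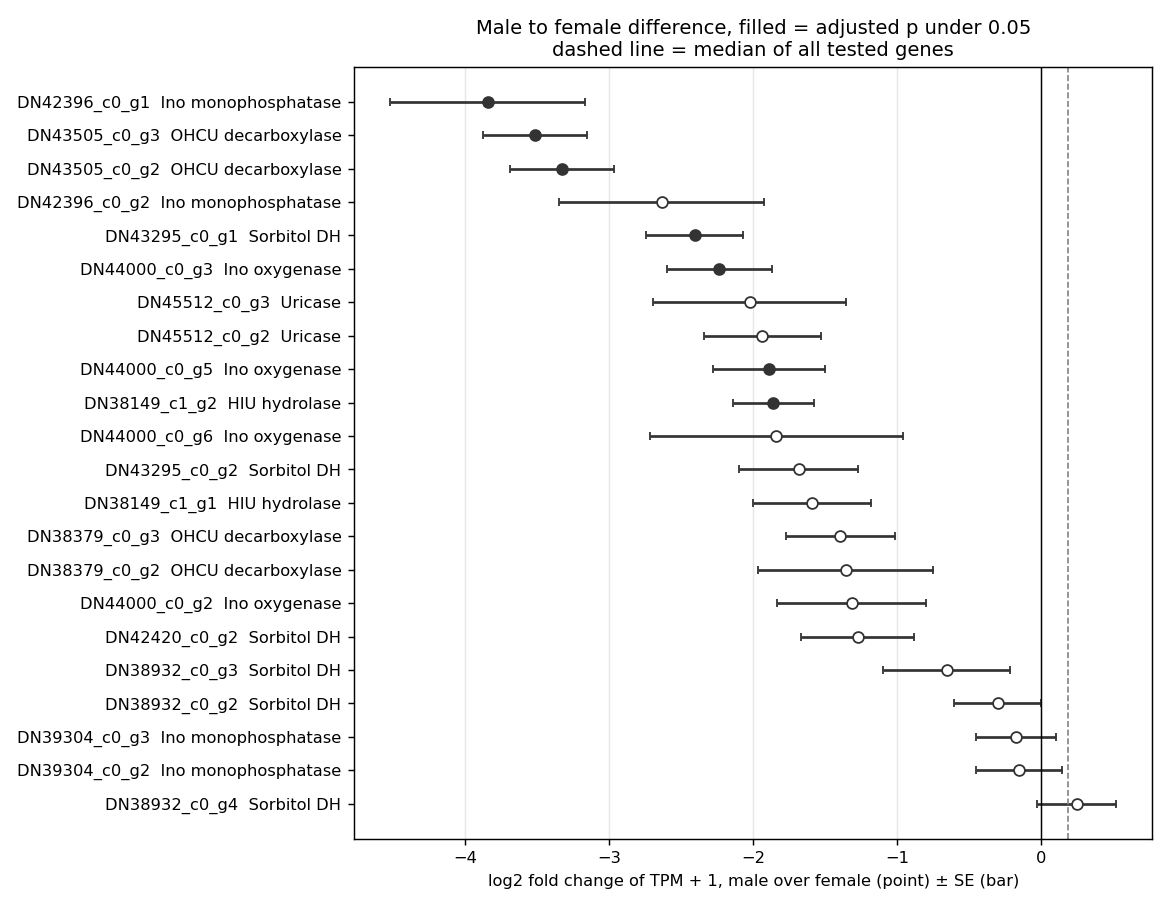
Log2 fold change of TPM + 1 between males and females (x axis, point ± SE, 3 libraries per sex) for the 22 tested members (y axis). Filled points passed an adjusted p of 0.05, the dashed line marks the median of all tested genes at 0.19, and the only point right of 0 is g4 of the sorbitol dehydrogenase component DN38932.

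The 10 genes named sorbitol dehydrogenase were also mixed. In component TRINITY_DN43295_c0, g1 was at 58.9, 83.2 and 38.3 TPM in females against 11.3, 10.2 and 8.68 TPM in males, with a log2 fold change of −2.41 ± 0.34 (SE, 3 libraries per sex). Its neighbour g2 was at 42.0, 22.1 and 14.6 TPM in females against 7.46, 8.15 and 5.06 TPM in males (−1.68 ± 0.41). Both had all males below all females. TRINITY_DN42420_c0_g2 was at 64.9, 66.7 and 30.3 TPM in females against 28.6, 20.7 and 14.4 TPM in males (−1.27 ± 0.39), so male 1 nearly reached female 3. The Swiss-Prot matches of these 3 genes were not sorbitol dehydrogenases but bacterial D-arabitol-phosphate dehydrogenase and an archaeal L-threonine dehydrogenase, relatives in the same dehydrogenase family, so the substrate is uncertain.

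Component TRINITY_DN38932_c0, whose Swiss-Prot match was cattle sorbitol dehydrogenase, had sexes that overlapped in all 3 tested genes. Its g4 was at 14.6, 16.5 and 17.8 TPM in females against 19.6, 17.4 and 21.4 TPM in males. This was the only tested member with a log2 fold change above 0, at 0.24 ± 0.27 (SE, 3 libraries per sex), or 0.06 from the median of all genes. Its g2 was at 17.7 to 30.4 TPM in females against 18.9 to 20.6 TPM in males (−0.30 ± 0.30), and g3 at 10.1 to 28.1 and 6.99 to 16.6 TPM (−0.66 ± 0.44). Summed by component, the ratio of DN43295 to DN38932 within a library was 1.61, 1.40 and 1.16 in females and 0.334, 0.384 and 0.281 in males. The remaining gene above 0 in this species, TRINITY_DN44309_c0_g1 of 213 bases, was at 5.19 TPM in female 1, 4.51 TPM in male 3 and 0 elsewhere.

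Of the 3 steps of urate breakdown, HIU hydrolase and OHCU decarboxylase had genes past the threshold and uricase had none. Uricase TRINITY_DN45512_c0_g2 lay just outside it (adjusted p = 0.0501, limma-trend). Its log2 fold change of −1.93 was near the −1.86 of the called HIU hydrolase gene, so the threshold does not separate these 2 steps in size. Uricase, which oxidises urate, had a pair of tested genes in component TRINITY_DN45512_c0. Its g2 was at 37.6, 33.6 and 27.2 TPM in females against 12.9, 3.97 and 8.74 TPM in males, with no overlap and a log2 fold change of −1.93 ± 0.40 (SE, 3 libraries per sex). Its g3 was at 41.9, 42.4 and 24.0 TPM in females against 26.6, 6.52 and 2.33 TPM in males (−2.02 ± 0.67). Here male 1 lay above female 3. TRINITY_DN886_c0_g1, of 282 bases, matched the uricase of a fungus, Emericella nidulans, and was at 6.57 TPM in male 3 and listed at 0 in every other library of both species.

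HIU hydrolase acts on the product of uricase. TRINITY_DN38149_c1_g2 was at 46.5, 42.8 and 33.1 TPM in females against 9.86, 9.78 and 11.7 TPM in males, with tight groups and a log2 fold change of −1.86 ± 0.28 (SE, 3 libraries per sex). Its neighbour g1 was at 34.2, 24.1 and 20.3 TPM in females against 11.99, 9.50 and 4.06 TPM in males (−1.59 ± 0.41). The sexes did not overlap in either gene.

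OHCU decarboxylase is the last of the 3 enzymes, and its components differed: DN43505 had the lowest log2 fold changes of the tested urate genes and DN38379 those nearest to 0. TRINITY_DN43505_c0_g3 was at 81.4, 105 and 49.5 TPM in females against 6.50, 3.94 and 7.04 TPM in males. Its log2 fold change was −3.51 ± 0.36 (SE, 3 libraries per sex), or −3.70 from the median of all genes. Its neighbour g2 was at 35.3, 31.0 and 17.4 TPM in females against 1.80, 1.96 and 1.55 TPM in males (−3.33 ± 0.36). These were the members least dependent on any 1 library: each stayed past the threshold under 12 of 13 alternatives and lost it only with all 9 libraries in the fit (adjusted p = 0.126 for g3 and 0.093 for g2, limma-trend). A separate component, TRINITY_DN38379_c0, was lower in level. Its g3 was at 8.98, 8.11 and 5.62 TPM in females against 1.51, 2.37 and 2.90 TPM in males (−1.40 ± 0.38), with no overlap, and its g2 at 1.71 to 7.58 and 0.39 to 2.05 TPM (−1.36 ± 0.61), with overlap.

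At the threshold itself, inositol oxygenase TRINITY_DN44000_c0_g5 was just inside (adjusted p = 0.0476, limma-trend) and uricase TRINITY_DN45512_c0_g2 just outside (adjusted p = 0.0501). Their log2 fold changes of −1.89 and −1.93 did not separate them. The former lost its place under 11 of 13 alternatives, and TRINITY_DN42396_c0_g1 under 8 of 13. Inositol oxygenase TRINITY_DN44000_c0_g3 lost it under 6, HIU hydrolase TRINITY_DN38149_c1_g2 under 5 and sorbitol dehydrogenase TRINITY_DN43295_c0_g1 under 2. With rows of a component summed, 5 of 10 tested components were past the threshold, all with males lower. Of all 11618 components tested, 135 were past it with males lower. The enzyme names were chosen on this contrast, so nothing is read from the 5 of 10. The summed log2 fold changes were −3.69 ± 0.68 for DN42396, −3.60 ± 0.33 for DN43505, −2.23 ± 0.33 for DN43295, −2.04 ± 0.35 for DN44000 and −1.76 ± 0.28 for DN38149 (SE, 3 libraries per sex).

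The steps of urate breakdown also differed in their balance within a library. OHCU decarboxylase summed to 118.6 ± 39.2 TPM in females against 10.9 ± 2.48 TPM in males (SD, n = 3 each), so the male mean was 9.16% of the female mean. The same share was 28.3% for HIU hydrolase, 32.7% for uricase (the fungus-like row of male 3 included), 38.4% for inositol monophosphatase and 44.6% for sorbitol dehydrogenase. The ratio of OHCU decarboxylase to uricase component DN45512 was 1.68, 1.95 and 1.45 in females 1, 2 and 3 and 0.263, 0.826 and 1.22 in males 1, 2 and 3. Its ratio to HIU hydrolase was 1.65, 2.22 and 1.39 in females and 0.475, 0.449 and 0.861 in males. The decarboxylase thus exceeded both partners in every female library, while in males it exceeded that uricase component in male 3 alone and HIU hydrolase in none. Its sum holds TRINITY_DN43505_c0_g3 (mean 78.8 TPM in females and 5.83 TPM in males), which was chosen for its lower level in males. The lower ratios in males are therefore a description and nothing is read from them.

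The fat body marker list was also lower in males, and its sum in females was nearly all vitellogenin. The 66 genes of that list (vitellogenin, hexamerin, apolipophorin and other storage proteins, most of them vitellogenin) summed to 10489, 12478 and 6672 TPM in females 1, 2 and 3 and to 91.2, 159 and 87.9 TPM in males 1, 2 and 3. Genes named vitellogenin (49) alone summed to 10260, 12080 and 6458 TPM in females and to 69.8, 117 and 71.9 TPM in males. The other genes of the list were not summed apart, so its sum is not a measure of fat body as a whole. Of the 45 tested genes of the list, 39 had sexes that did not overlap with males lower (6.83% of all tested genes). Past the threshold with males lower were 35 (0.918% of all). In females 16 to 19 of the 66 were listed at 0, and in males 23 to 31. Female 3 had the lowest sum of the females, and it was also the lowest female in 19 of the 22 tested enzyme genes. The same count over all tested genes is not given and the match rests on 1 library, so nothing is read from it. The part of fat body RNA in the enzyme levels was not tested. Markers of muscle (39 tested), hemocytes (6) and gut and Malpighian tubule (102) each had 0 genes past the threshold by limma-trend (415 of all 22015 tested genes passed). Those at an unadjusted p under 0.05 numbered 7, 0 and 7 (3415 of all 22015), and limma without trend called 0 in each. Summed gut and tubule markers were 3462 to 3649 TPM in females against 3308 to 4459 TPM in males. Summed muscle markers were 11970, 11970 and 16020 TPM in females against 11430, 7557 and 7500 TPM in males, also with no overlap, and their part in the enzyme levels was not tested.

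**Figure D3:**
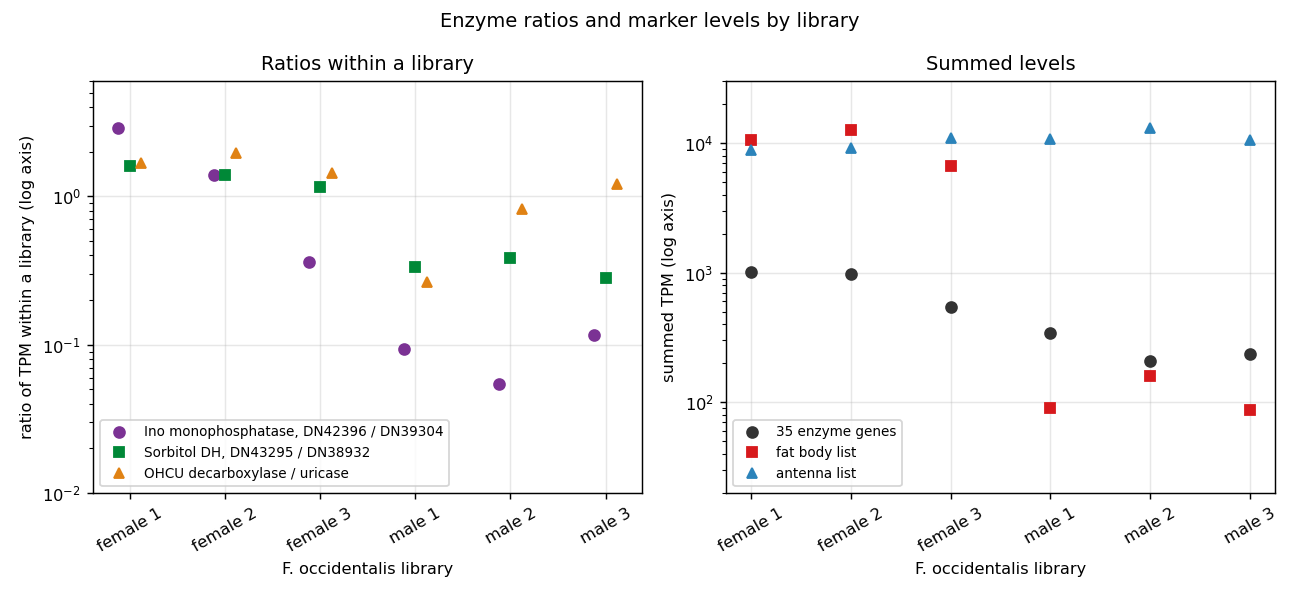
Left, ratios of TPM within each F. occidentalis library (log axis) for the inositol monophosphatase components, the sorbitol dehydrogenase components and OHCU decarboxylase to uricase. Right, summed TPM (log axis) of the 35 members, the fat body list and the antenna list, where the first pair is higher in all 3 females and the antenna list stays between 8880 and 13020.

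Few genes passed the threshold between the sexes (415 of all 22015 tested), and no tested neighbouring gene of the same pathways did. Counts of 0 in lists of this size are near that share and are not read as a contrast with the members. Of 69 tested genes of inositol phosphate and phosphoinositide metabolism, 102 of polyol, glucuronate and trehalose metabolism and 37 of purine metabolism, 0, 0 and 0 passed the threshold between the sexes by limma-trend. At an unadjusted p under 0.05 there were 2, 17 and 2 (3415 of all 22015 tested genes), and limma without trend called 0 in each. Over all alternatives the highest counts were 0, 1 and 1. The sexes did not overlap, with males lower, in 0, 12 and 5 of them (6.83% of all tested genes), and with males higher in 11, 13 and 0 (13.3% of all). The median log2 fold changes were 0.27, 0.07 and −0.05. The genes of highest mean in the lists were as follows. A diphosphoinositol polyphosphate phosphohydrolase (TRINITY_DN45119_c1_g1), which trims pyrophosphates from inositol phosphates, was at 31.7 ± 11.6 TPM in females against 27.8 ± 13.1 TPM in males (SD, n = 3 each). Cytoplasmic glycerol-3-phosphate dehydrogenase (TRINITY_DN45538_c0_g5), which links glycolysis to glycerol, was at 226 ± 45.2 and 161 ± 60.6 TPM. Inosine monophosphate dehydrogenase (TRINITY_DN42744_c0_g1), which commits purines to guanine nucleotides, was at 48.3 ± 11.9 and 53.7 ± 7.72 TPM. Xanthine dehydrogenase, which makes urate, was looked up after the values were seen. Its 12 rows summed to 56.8, 71.7 and 79.5 TPM in females against 89.1, 72.2 and 78.6 TPM in males, so the sexes overlapped. Aldose reductase, which reduces glucose to sorbitol, was looked up likewise. Its 21 rows summed to 356, 354 and 308 TPM in females against 261, 191 and 214 TPM in males, with no overlap, while its 10 tested rows had log2 fold changes from −2.11 to 1.64.

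Comparison of the species is limited by how the assembly divides them. Of the 35 members, 13 were above 0 in F. occidentalis alone, 10 in F. intonsa alone and 12 in both. Component TRINITY_DN39304_c0 shows this division, since its g2 and g3 were at 0 in all F. intonsa libraries and its g1 and g6 at 0 in all F. occidentalis libraries. A 0 is therefore called a listing: inosine monophosphate dehydrogenase, which most cells use, was also listed at 0 in all 3 F. intonsa libraries for TRINITY_DN42744_c0_g1. Of the 22 members above 0 in F. intonsa, 19 had their highest value in F. intonsa female 2. That library had 21 members above 0, against 13 in female 1 and 6 in female 3.

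Summed by enzyme name, F. intonsa females were mostly below F. occidentalis females. The exact permutation test compares 3 with 3 libraries and cannot go below p = 0.1, so no name could pass a threshold of 0.05. Inositol oxygenase summed to 210, 247 and 147 TPM in F. occidentalis females and 15.3, 101 and 0.02 TPM in F. intonsa females 1, 2 and 3. Inositol monophosphatase summed to 266, 185 and 90.6 TPM against 21.4, 70.8 and 0.03 TPM, and OHCU decarboxylase to 133, 148 and 74.2 TPM against 0.09, 41.4 and 0 TPM. Uricase summed to 79.5, 75.9 and 51.2 TPM against 0.05, 24.7 and 0 TPM, and HIU hydrolase to 80.8, 66.9 and 53.4 TPM against 51.2, 30.6 and 1.62 TPM. The species did not overlap in any of these 5, each with an exact two-sided permutation p of 0.1 (0.14 adjusted over 7 names). The share of all genes without overlap between the species is not given. By limma-trend 68.3% of all 21231 tested genes were called lower in F. intonsa, so nothing is read from the 5 names. Sorbitol dehydrogenase overlapped, at 234, 247 and 129 TPM against 22.3, 158 and 8.38 TPM (exact p = 0.2, 0.233 adjusted), as did inositol-3-phosphate synthase (exact p = 1, also adjusted).

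The share of unannotated RNA moved with this result. When TPM was rescaled over genes with a database match, HIU hydrolase in F. intonsa became 332, 56.6 and 19.6 against 113, 92.9 and 72.2 in F. occidentalis females, and the direction of the mean turned. Rescaled inositol monophosphatase was at 139, 131 and 0.363 against 372, 257 and 122, so the species now overlapped (exact two-sided permutation p = 0.3). Rescaled inositol oxygenase was at 99.6, 187 and 0.242 against 294, 343 and 199, with no overlap. Rescaled sorbitol dehydrogenase was at 145, 292 and 101 against 327, 343 and 174. HIU hydrolase in F. intonsa rested on a single assembled gene, TRINITY_DN34295_c1_g1, at 51.2, 30.6 and 1.62 TPM, which was listed at 0 in all F. occidentalis libraries.

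**Figure D4:**
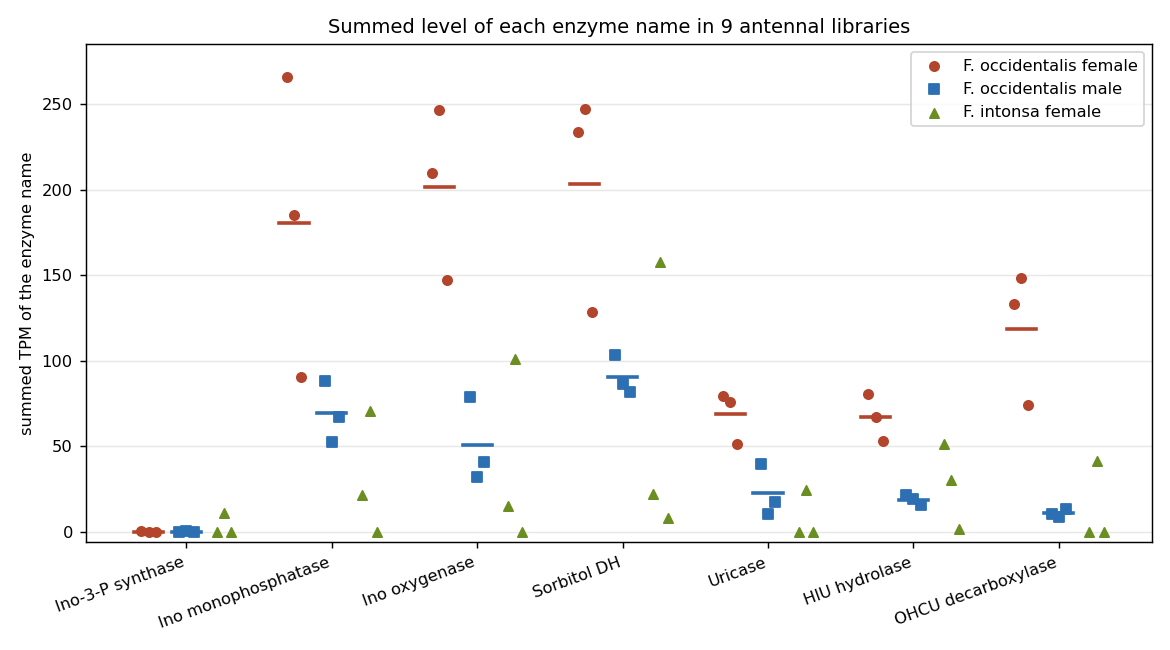
Summed TPM (y axis) of the assembled genes of each enzyme name (x axis) in every library, with short lines at the mean of each F. occidentalis group. F. occidentalis females are highest for inositol monophosphatase, inositol oxygenase, uricase, HIU hydrolase and OHCU decarboxylase, and F. intonsa female 2 (157.9 TPM) lies among them for sorbitol dehydrogenase.

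In the fit across all genes between the females of the species, 22 members were tested. The median log2 fold change was −2.35 for all tested genes and −4.11 for the tested members, so every fold below includes that general shift. From the median of all genes, DN43295_c0_g1 lay −3.42, DN44000_c0_g5 −2.95 and DN42396_c0_g1 −2.89. Of these, 17 were called lower in F. intonsa (68.3% of all 21231 tested genes were) and 1 higher (17.1% of all), and 11 of these 18 were listed at 0 in all females of one species. Those 11 passed the filter on low values only through the species in which they were present, so they had to differ and no fold is given. Among members above 0 in females of both species, 7 of 11 were called lower in F. intonsa (44.8% of all 6324 such genes). All 11 reached 1 TPM in all 3 F. occidentalis females and in at most 1 F. intonsa library, so they too passed the filter through F. occidentalis, and nothing is read from that count. Sorbitol dehydrogenase TRINITY_DN43295_c0_g1 was at 0, 0.22 and 0 TPM in F. intonsa females 1, 2 and 3 against 38.3 to 83.2 TPM in F. occidentalis females. Its fold change was set by the pseudocount, at −5.77 on the log2 scale with 1 and −8.60 with 0.1, and is no measure of size. Inositol oxygenase TRINITY_DN44000_c0_g5 was at 0.91, 7.68 and 0 TPM (log2 fold change −5.30 ± 0.84 SE, 3 libraries per species; adjusted p = 0.00181, limma-trend). Inositol monophosphatase TRINITY_DN42396_c0_g1 was at 0, 4.20 and 0 TPM (−5.24 ± 1.03 SE; adjusted p = 0.0046, limma-trend). The latter was chosen for its high level in these same F. occidentalis females, so its call is a description. Both folds also moved with the pseudocount, to −6.76 and −7.52 with 0.1, and are no measure of size either.

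The other 4 called members were g2 of the same inositol monophosphatase component (−3.55 ± 0.93 SE), both OHCU decarboxylase genes of DN43505 (g3 at −4.76 ± 1.34 and g2 at −3.51 ± 1.13) and uricase DN45512_c0_g2 (−3.84 ± 1.08), with adjusted p-values from 0.0143 to 0.0299 (limma-trend). DN43505_c0_g3 was also chosen with these F. occidentalis females in view, so its call is a description. From the median of all tested genes, −2.35, the 4 folds lay −1.19, −2.41, −1.15 and −1.49 in the order named. With a pseudocount of 0.1 the 4 folds were −5.80, −6.98, −5.56 and −6.05, so they are no measure of size either. In F. intonsa female 2 these 4 members were at 2.20, 21.3, 13.01 and 11.8 TPM, and in females 1 and 3 at 0 to 0.04 TPM. Leaving out F. occidentalis female 2 ended the call of all 4, and leaving out F. occidentalis female 1 or 3 or F. intonsa female 1 ended that of the last 3. Quantile normalization ended the call of all but DN43505_c0_g3. The call of DN43505_c0_g2 also ended without F. intonsa female 3, with no filter and with rescaled TPM. The 4 members not called were each high in F. intonsa female 2 and near or at 0 in the others. They were inositol oxygenase DN44000_c0_g2 (0, 54.3 and 0.02 TPM), and sorbitol dehydrogenases DN42420_c0_g2 (0.28, 45.3 and 0.1 TPM), DN38932_c0_g3 (0, 42.4 and 0 TPM) and DN43295_c0_g2 (0.63, 19.4 and 0 TPM). The females of F. occidentalis enter both this comparison and that between the sexes, so the directions are not independent of each other.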

How the data were processed

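The authors deposited TPM values and annotation text for 48889 assembled genes, both species in 1 table. The unit is not named in the table and was inferred from the column sums (935518 to 987791) and from the use of Salmon. The tools named per the submitters' processing notes are Salmon, FastQC and cutadapt. Their versions, the assembler and the annotation databases' releases were not stated in the sources used here. Per the labels' protocols template-switching cDNA was amplified by PCR. The smallest row maximum was 5.01 TPM, so genes low in every library are missing. The Length column, in bases, was used as deposited. All 9 value columns matched samples by name, and 0 identifiers matched the RefSeq gene table.

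Tests across all genes ran in R 4.3.3 with limma 3.58.1 (its trend option) on log2(TPM + 1), which understates changes of low genes, for genes with at least 1 TPM in at least 3 of 6 libraries and an adjusted p threshold of 0.05. Enzyme sums used exact two-sided permutation tests (scipy 1.17.1). Other work used Python 3.11.15, pandas 2.3.3, numpy 2.4.6, statsmodels 0.14.6 and matplotlib 3.10.9. The fit was tested on simulated data. Most named members had a mean of at least 5 TPM in a group, were called, were highest of their enzyme name in a species, or were the 2 chosen genes. The low TRINITY_DN886_c0_g1 and TRINITY_DN44309_c0_g1 were named besides. Given only here, by their F. intonsa mean, are sorbitol dehydrogenases TRINITY_DN38932_c0_g1 (15.4 TPM) and TRINITY_DN17459_c0_g1 (6.99 TPM). Inositol oxygenases TRINITY_DN41150_c0_g11 (12.7 TPM) and TRINITY_DN44000_c0_g1 (5.14 TPM) are likewise. Pathway genes were named by calls or highest mean. Members, gene lists and tests were chosen with earlier results of these data known. Same-numbered libraries showed no pairing in their values: correlations of their deviations ran from −0.0554 to 0.0499 across genes.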

Additional observations from a re-analysis of the deposited data

How the results depend on the processing

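Members past the threshold between the sexes numbered 7, and 4 with all 9 libraries in 1 fit, 3 with limma without trend, 4 with no filter on low values, and 2 to 6 with 1 library left out. With the replicate number as a block there were 8, a hint only, since same-numbered libraries are not known to share a source. All genes past it numbered 415 (213 higher and 202 lower in males), 198 with limma without trend (94 and 104), 116 with no filter (32 and 84), 271 with a pseudocount of 0.1 (119 and 152), 207 after quantile normalization (65 and 142), 363 with the replicate block, and 76 to 273 with 1 library left out.

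Between species, all genes past the threshold fell from 18127 to 11047 after quantile normalization (4538 higher and 6509 lower in F. intonsa). With rows of a component summed, an alternative chosen after seeing the data, 6083 of 11195 passed and 7 of 11 tested member components, against 18 of 22 members. Fewer rows are tested there by construction. Inositol oxygenase DN44000_c0_g2 turned from −1.62 to 1.11 after quantile normalization. The difference in summed TPM (F. intonsa minus F. occidentalis) turned from −39.2 to 43.4 for HIU hydrolase with TPM rescaled, and for inositol-3-phosphate synthase it ran from −0.22 to 5.22 with 1 library left out, −0.22 being the value without F. intonsa female 2. The cause was not tested. The sums of the other 5 enzyme names kept their direction under every alternative run. TPM without read numbers gives no limit of detection.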

Other observations

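For each of the genes chosen for their lower level in males, the 5 tested genes nearest in pattern were found by the root mean square difference of centred log2(TPM + 1) over the 6 F. occidentalis libraries. This is a description of likeness with no test. Nearest to TRINITY_DN42396_c0_g1 (inositol monophosphatase) were a chymotrypsin-2-like protease (TRINITY_DN37451_c1_g8, difference 0.53), a pair of tubulin alpha genes (TRINITY_DN45451_c0_g9 at 0.53 and TRINITY_DN43903_c1_g1 at 0.63), a major royal jelly protein 1-like gene (TRINITY_DN46831_c2_g2, 0.62) and its own neighbour g2 (0.66). The chymotrypsin-like gene was at 41.1, 30.4 and 7.5 TPM in females 1, 2 and 3 and 3.16, 0.12 and 3.13 TPM in males. The tubulin alpha gene of least difference was at 34.95, 18.2 and 1.14 TPM in females and 0.03, 0 and 0 TPM in males. All 5 held the order of females 1, 2 and 3, as genes picked for likeness over these same libraries would, so nothing is read from it.

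Nearest to TRINITY_DN43505_c0_g3 (OHCU decarboxylase) were a venom carboxylesterase-6-like gene (TRINITY_DN44505_c0_g2, 0.32), its own neighbour g2 (0.33), 2 vitellogenin genes (TRINITY_DN46805_c1_g2 at 0.37 and TRINITY_DN39011_c0_g1 at 0.45) and a gene whose Swiss-Prot match was horseshoe crab clotting factor C (TRINITY_DN45664_c0_g6, 0.48). The carboxylesterase-like gene was at 18.6, 19.7 and 10.6 TPM in females and 0, 0 and 0.15 TPM in males. The first vitellogenin gene was at 8.92, 9 and 3.76 TPM in females and 0 TPM in all males.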
